A study of Mus musculus with 250 samples.

Results

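The astrocyte G protein-coupled receptors described here are 10 genes, Ntsr2, Gpr37l1, Ednrb, Adora1, Adora2b, S1pr1, P2ry1, Adrb1, Adra1a and Adra2a. They were taken by name from a table of 24490 gene rows, of which 16367 had at least 1 read, and all 10 had a row with reads. They were followed through 250 single cells that are titled brain astrocytes. The cells came from adult C57BL/6 mice of about 3 months with the genotype SM22-Cre;Rosa26-stop-tdTomato, and all of them share it. Cre under the SM22 promoter is active in smooth muscle, where it removes the stop in front of the red protein tdTomato. Cells were sorted by fluorescence into wells of 384-well plates and full-length cDNA was made by SmartSeq2. No source used here states the gate. The column headers carry the prefixes VSMC2 (162 cells, called plate 2 here) and VSMC3 (88 cells, called plate 3), although the titles say astrocyte. No animal is named. The 250 cells therefore form 1 group with no replicates that could be identified from the labels, and spreads below are between cells.

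G protein-coupled receptors sit in the cell membrane, bind a transmitter, peptide, lipid or nucleotide outside, and act inside through a G protein. Gq starts phospholipase C and calcium release from stores, Gs starts adenylyl cyclase, and Gi holds it down. Astrocytes are known to sense neuronal and vascular signals in this way, and noradrenaline, adenosine, ATP, endothelin and sphingosine-1-phosphate are among those signals. The G protein given for each receptor is the class it is best known for. For the neurotensin receptor Ntsr2 that class is uncertain, and Ednrb and others can use more than 1 class.

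The 250 cells held 72773548 reads, with a median of 282290 per cell (102161 to 564958). The median was 256247 on plate 2 and 391072 on plate 3. Levels are counts per 1000000 reads of a cell (CPM), and a receptor was called detected at 10 CPM or more, which was 2 to 6 reads. Where levels of different genes are set against each other, TPM is used, which divides by the annotated exon length before the scaling. That length is the union of the exons of all annotated transcripts of the gene. For a gene with several transcripts it can be longer than any 1 of them, which lowers its TPM. The label was checked against 13 astrocyte markers, of which each cell had 9 to 13 with a median of 12. Atp1b2, the glial sodium pump subunit, Gja1, the astrocyte gap junction protein, and Aldoc, a glycolytic aldolase, were in all 250 cells, and the filament gene Gfap was in 32. The summed level of 7 smooth muscle markers was 0 to 1013 CPM, with a mean of 36.4 CPM, and Acta2 was detected in 39 cells, Myl9 in 28, Tagln and Myh11 in 5 each, Tpm2 in 3, and Cnn1 and Des in none. Of 8 oligodendrocyte markers 1 was in at least 50% of the cells. Mbp was in 60 cells, and 6 markers were in at most 8. In 11 cells 3 or more markers of another type were detected.

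The receptors fell into a broad and a sparse set. Ntsr2, Gpr37l1, S1pr1 and Ednrb were detected in 247 to 250 of the 250 cells, and the other 6 in 15 to 103. Thus 4 of 10 were present in 50% or more of the cells, where 5.92% of the genes with reads were. The members were chosen as receptors of astrocytes with levels in these cells already known, so that share is a description. The summed level of all 10 receptors was 18020 ± 4214 CPM (SD between cells, n = 250), or 1.80% of the reads, from 3665 CPM in the lowest cell to 27321 CPM in the highest.

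**Figure D1:**
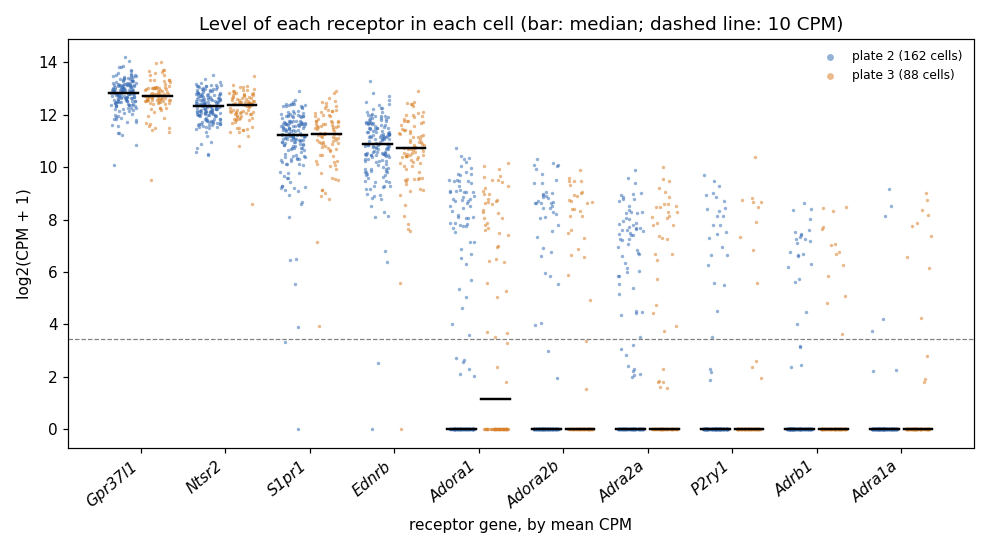
Level of each receptor in each cell as log2(CPM + 1), with receptors in order of mean CPM, cells of plate 2 in blue and of plate 3 in orange, black bars at the plate medians and a dashed line at 10 CPM. The points of Gpr37l1, Ntsr2, S1pr1 and Ednrb lie almost all above the line on both plates, and those of the other 6 receptors are split between 0 and levels well above the line.

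Gpr37l1, an orphan receptor related to Gpr37 for which prosaposin has been proposed as a ligand, had the highest level per length of the 10. Its lowest, median and highest cells had 729, 7158 and 18704 CPM, and the lower and upper quartiles were 5778 and 8826 CPM. Every cell had it, and the mean was 7455 ± 2841 CPM (SD, n = 250). Per length the mean was 12905 ± 4881 TPM, which ranked 5 among all genes with a length. The gene lies on chromosome 1 at 135160234-135167681 on the minus strand of GRCm38, with 2 coding exons.

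Ntsr2, the low-affinity receptor of the gut and brain peptide neurotensin, was second. Its lowest, median and highest cells had 388, 5202 and 11607 CPM, and the quartiles were 4030 and 6553 CPM. The mean was 5355 ± 1933 CPM (SD, n = 250), or 6731 ± 2399 TPM, rank 13 per length. Per length, Gpr37l1 was above Ntsr2 in 221 of the 250 cells, with a median ratio of 1.84 (quartiles 1.33 and 2.82). That order held in 144 of 162 cells on plate 2 and in 77 of 88 on plate 3. The Ntsr2 gene lies on chromosome 12 at 16653382-16660227, plus strand, with 4 coding exons.

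Levels of Ntsr2 and Gpr37l1 were among the most even of the abundant genes. The coefficient of variation (CV, the SD over the mean) of the level in CPM was 0.361 for Ntsr2 and 0.381 for Gpr37l1. Among the 100 genes of highest mean CPM the median CV was 0.621, with 1 gene below Ntsr2 and 5 below Gpr37l1. On plate 2 there were 3 and 5 such genes, and on plate 3 there were 4 and 11. S1pr1 with a CV of 0.579 had 37 of the 100 genes below it, and Ednrb with 0.699 had 71. So the first pair was at the even end on both plates, S1pr1 was near the middle, and Ednrb was more variable than most.

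S1pr1, the Gi-coupled receptor of the lipid sphingosine-1-phosphate, was detected in 248 cells (99.2%, exact binomial interval 97.1 to 99.9%). Its lowest, median and highest cells had 0, 2407 and 7729 CPM. The mean was 2594 ± 1502 CPM, or 3351 ± 1965 TPM (SD, n = 250). S1pr1 lies on chromosome 3 at 115710433-115715072, minus strand, with 1 coding exon.

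Ednrb, the endothelin receptor that binds all endothelins alike and is best known to use Gq, was detected in 247 cells (98.8%, 96.5 to 99.8%). Its lowest, median and highest cells had 0, 1776 and 10076 CPM. The mean was 2148 ± 1502 CPM, or 1976 ± 1384 TPM (SD, n = 250). Per length, the steps from Gpr37l1 to Ntsr2 and from Ntsr2 to S1pr1 were larger than the SD between cells of either gene, and the step from S1pr1 to Ednrb was smaller. Ednrb lies on chromosome 14 at 103814625-103844402, minus strand, with 7 coding exons.

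The few cells that lacked a broad receptor differed from each other. Cell 15 had no S1pr1 read, and cell 58, with 8.99 CPM of S1pr1, was the only cell with 3 receptors detected. Cells 66 and 195 had no Ednrb read, and cell 80 had 4.72 CPM. Cell 231 on plate 3 had the lowest Ntsr2 (388 CPM) and the lowest sum over the 10 receptors (3665 CPM), with 14.4 CPM of S1pr1 and 46.7 CPM of Ednrb. It had 1568 genes detected, below the median of 2401, and 11 of 13 astrocyte markers. Cell 245, also on plate 3, had the lowest Gpr37l1 (729 CPM) beside 5030 CPM of Ntsr2, 3146 CPM of Ednrb and 2111 CPM of S1pr1. In cell 80 all 4 broad receptors were below their medians over cells, with 4112 CPM of Ntsr2, 6607 CPM of Gpr37l1 and 274 CPM of S1pr1, and in cell 245 Ednrb was above its median.

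The adenosine receptors were detected in a minority of cells. Adora1, the Gi-coupled high-affinity receptor, was detected in 103 cells (41.2%, 35.0 to 47.6%), with a highest cell of 1719 CPM. It had no read in 138 cells and reads below 10 CPM in 9. The mean over all cells was 182 ± 312 CPM (SD, n = 250), and the median of the cells that had it was 389 CPM. Adora1 lies on chromosome 1 at 134199223-134235431, minus strand, and overlaps Mybph on the other strand, which had 0 reads.

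Adora2b, the Gs-coupled low-affinity adenosine receptor, was detected in 68 cells (27.2%, 21.8 to 33.2%). The highest cell had 1267 CPM, the mean was 117 ± 248 CPM (SD, n = 250) and the median where detected was 401 CPM. Per length the order of the pair turned, with a mean of 252 TPM for Adora2b and 123 TPM for Adora1. That difference in TPM was below the SD between cells of Adora2b (534 TPM). Adora2b lies on chromosome 11 at 62248984-62266453, plus strand.

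The 3 adrenergic receptors receive noradrenaline, the transmitter of the locus coeruleus. Adra2a, Gi-coupled, was detected in 86 cells (34.4%, 28.5 to 40.6%), with a mean of 87.4 ± 173 CPM (SD, n = 250) and a highest cell of 1034 CPM. Adrb1, Gs-coupled, was in 37 cells (14.8%, 10.6 to 19.8%), with a mean of 22.5 ± 67.3 CPM and a highest cell of 396 CPM. Adra1a, Gq-coupled and tied in other work to noradrenaline-driven calcium in astrocytes, was in 15 cells (6.0%, 3.40 to 9.70%), with a mean of 14.5 ± 71.5 CPM and a highest cell of 577 CPM. Per length, the medians of the cells that had the receptor were 166 TPM for Adra2a, 159 TPM for Adrb1 and 104 TPM for Adra1a, so these levels were nearer to each other than the shares of cells. Adra2a and Adrb1 lie on chromosome 19 at 54044151-54048982 and 56722199-56733113, both on the plus strand with 1 coding exon. Adra1a lies on chromosome 14 at 66635251-66771168, plus strand.

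P2ry1, the Gq-coupled receptor of ADP, was detected in 35 cells (14.0%, 9.95 to 18.9%). The mean was 44.4 ± 148 CPM (SD, n = 250), the median where detected was 278 CPM, and the highest cell had 1333 CPM. That cell held 14.1% of all P2ry1 reads, and the highest cell of Adra1a held 19.1% of its reads, so both means lean on few cells. P2ry1 lies on chromosome 3 at 61002795-61008982, plus strand, with 1 coding exon, and overlaps an antisense gene that has no row in the table. Without a stated strand setting its reads cannot be told from antisense reads.

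A low share of cells was common for genes of such levels. The 100 genes nearest in mean CPM had a median share of 49.0% for Adora1, 37.0% for Adora2b, 29.0% for Adra2a, 17.2% for P2ry1, 10.0% for Adrb1 and 6.80% for Adra1a. Adora1, Adora2b, P2ry1 and Adra1a were in fewer cells than that median, and Adra2a and Adrb1 in more. Adra2a and Adra1a lay between the quartiles of their 100 genes (25.1 to 35.3% and 5.60 to 9.70%), and Adora1 (43.6 to 59.6%), Adora2b (31.6 to 41.4%), P2ry1 (14.3 to 21.7%) and Adrb1 (8.30 to 13.2%) lay outside. A receptor not detected in a cell may still have been transcribed there, since the reads of 1 cell set what could be seen.

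Summed by class per length, Gq-coupled members came to 8754 ± 2785 TPM and Gi-coupled members to 3546 ± 2011 TPM. Gs-coupled members came to 278 ± 535 TPM (SD, n = 250 for each sum). Ntsr2, whose class is uncertain, gave 6731 TPM of the Gq sum. The rest of it was Ednrb (1976 TPM), P2ry1 (40.6 TPM) and Adra1a (6.48 TPM), together below the Gi sum. The order of Gq and Gi thus rests on the class given to Ntsr2. A Gq-coupled receptor was detected in 250 cells, and in 247 by Ednrb alone, which leaves the uncertain class of Ntsr2 aside. A Gi-coupled receptor was in 248 cells, and a Gs-coupled one in 95 (38.0%, 32.0 to 44.3%). Of the summed TPM of the 10 receptors, Gpr37l1, which was put in no class, took 49.9%, Ntsr2 27.1%, S1pr1 13.1% and Ednrb 7.82%. The 6 sparse receptors took from 0.0249% (Adra1a) to 0.937% (Adora2b) each. Gpr37l1 had the highest TPM of the 10 in 220 cells, Ntsr2 in 27, S1pr1 in 2 and Ednrb in 1.

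The plates were compared next, as the only split that the headers give. The mean CPM of 1 of the 10 receptors differed by more than 1.5-fold between plates, where 29.1% of 7289 genes with a mean of 20 CPM or more did. That receptor was Adra1a, whose mean was 7.75 CPM on plate 2 and 27.0 CPM on plate 3, 3.48-fold higher on plate 3 (log2 1.80). It was detected in 5 of 162 cells (3.09%, 1.01 to 7.06%) on plate 2 and in 10 of 88 (11.4%, 5.59 to 19.9%) on plate 3. With a mean below 20 CPM it was outside the 7289 genes, and the cells of the plates overlapped, most being at 0 on both. Its highest cells were 577 CPM on plate 2 and 511 CPM on plate 3. Leaving out both of these cells, the top cell of each plate, gave a ratio of 5.07.

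The other 9 receptors had ratios of plate 3 to plate 2 from 0.947 for Ednrb to 1.28 for Adra2a. For Ntsr2 the means were 5380 and 5309 CPM, and for Gpr37l1 7562 and 7257 CPM. The ratio of P2ry1 was 1.03, and leaving out the top cell of each plate together gave 0.776. Its share of cells was 15.4% on plate 2 and 11.4% on plate 3, with intervals that overlap (10.2 to 21.9% and 5.59 to 19.9%). Adora1 was in 38.3% of the cells on plate 2 and 46.6% on plate 3, also with overlapping intervals (30.8 to 46.2% and 35.9 to 57.5%). Whether the plates came from the same animals is not given, so plate and animal cannot be told apart.

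A cell had a median of 5 of the 10 receptors, from 3 to 8, with a mean of 5.36 ± 1.05 (SD, n = 250). There were 58 cells with 4, 84 with 5, 70 with 6, 32 with 7 and 5 with 8. If the receptors were detected independently within each plate, 49.5, 96.0, 72.2, 26.2 and 4.76 cells would have those numbers. Over both plates the observed counts were thus below independence at 5 and 6 receptors and above it at 4, 7 and 8. Of these, only 4 and 5 had the same direction on each plate. At 6 there were 42 cells (44.7 expected) on plate 2 and 28 (27.4) on plate 3. At 7 there were 21 (15.0) and 11 (11.2), and at 8 there were 1 (2.46) and 4 (2.30). The variance over cells was 1.10 times that under independence, 1.06 on plate 2 and 1.17 on plate 3, and at a detection limit of 1 read it was 1.01 times. No cell had 9 or 10, where independence gives 0.405 and 0.0123 cells, so this absence does not differ from it. A count of 0 of 250 limits such a share to 1.20%.

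**Figure D2:**
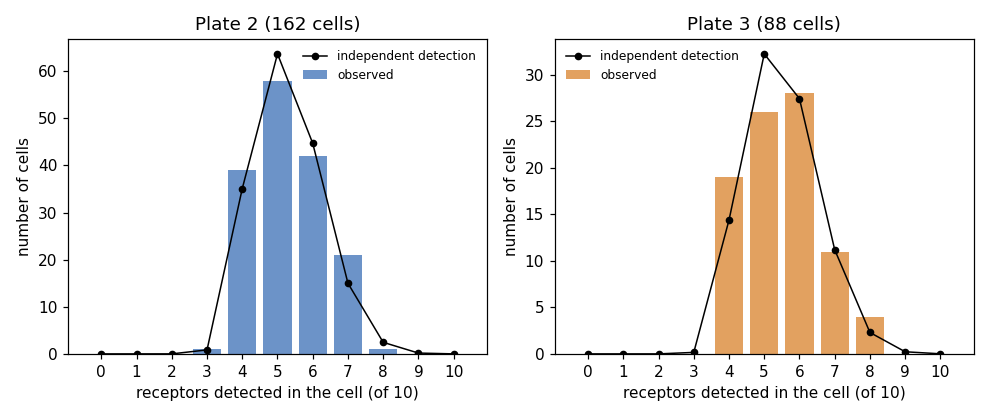
Number of the 10 receptors detected per cell (horizontal axis) against the number of cells (vertical axis), on plate 2 (left, 162 cells) and plate 3 (right, 88 cells), with bars for the observed cells and black points for independent detection with the shares of the same plate. On both plates the bars follow the points, with fewer cells than independence gives at 5 receptors and more at 4.

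The number of receptors in a cell had a higher rank correlation with the genes detected in it than with its reads on both plates. The rank correlation with genes detected was 0.303 over the 162 cells of plate 2 and 0.143 over the 88 of plate 3, and with total reads it was 0.06 and -0.03. Cells of a plate share their preparation and every count shares the total of its cell. With independence taken within the lower and the upper group of each plate by genes detected, the variance ratio was 1.06. The part of RNA quality in this was not tested.

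Co-detection could be read for 5 receptors, Adora1, Adora2b, P2ry1, Adrb1 and Adra2a, which were in 10 to 90% of the cells of each plate. They form 10 pairs, and the other 35 of the 45 pairs hold a receptor that nearly every cell or hardly any cell had. Of the 10 pairs, 3 were found together more often than independence gives on both plates, 1 less often on both, and 6 differed in direction between plates. Observed and expected numbers differed by at most 2.48 cells. The expected share lay inside the exact binomial interval of the observed share in 20 of 20 values. That interval covers only the counting error of the observed share, while the expected share comes from the same cells. It therefore cannot decide whether the receptors were detected independently.

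The pair Adora1 and Adora2b, 2 receptors of the same ligand with opposite effects on adenylyl cyclase, was 1 of the 3 pairs above independence on both plates. It was together in 18 cells of plate 2 where 15.7 were expected, a share of 11.1% (6.72 to 17.0%) against 9.69%. On plate 3 it was together in 15 cells where 12.6 were expected, a share of 17.0% (9.87 to 26.6%) against 14.3%. Over both plates 33 cells had both, 70 had only Adora1, 35 had only Adora2b and 112 had neither. P2ry1 and Adrb1 were together in 4 cells (3.55 expected) on plate 2 and 3 (1.59) on plate 3, and P2ry1 and Adra2a in 9 (8.64) and 4 (3.41). Adora2b and Adra2a, the pair below on both plates, were together in 13 (14.2) and 9 (9.20).

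**Figure D3:**
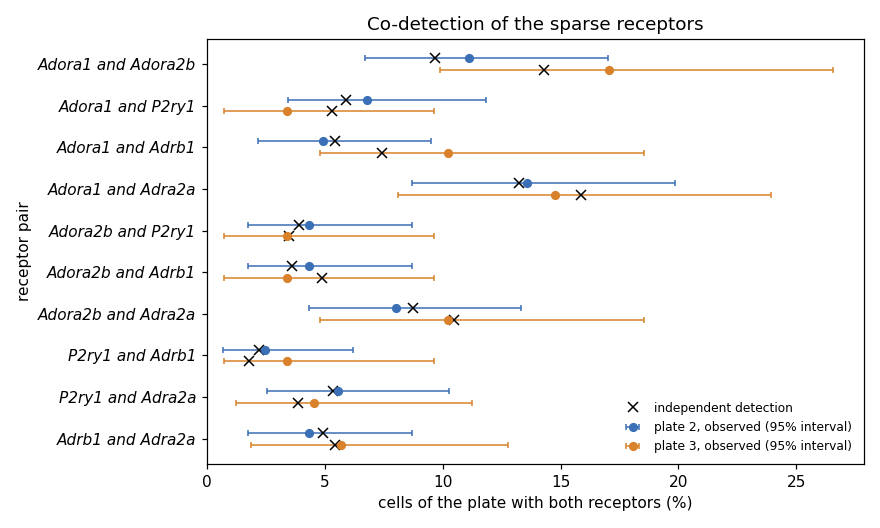
Share of cells of a plate (horizontal axis, percent) with both receptors of each of the 10 pairs, as points with exact 95% binomial intervals for plate 2 (blue) and plate 3 (orange), and as crosses the share that independent detection gives. All 20 crosses lie inside their intervals, Adora1 and Adora2b included, whose points are to the right of their crosses on both plates.

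The adrenergic receptors were also combined in cells in numbers close to independence. None of them was detected in 133 cells, where 131 were expected under independence. Adra2a alone was in 69 cells (68.9 expected), Adrb1 alone in 23 (22.8) and Adra1a alone in 6 (8.35). Adra2a and Adrb1 without Adra1a were in 10 cells (11.9), and all 3 were in 2 (0.788), both of them on plate 3. So 53.2% of the cells (46.8 to 59.5%) had no detected adrenergic receptor of these 3, and the Gq-coupled one was the rarest of them.

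Levels of the receptors were weakly correlated with each other. Over all 45 pairs the rank correlation over cells ran from -0.16 to 0.25 on the plates, and its median was 0.02 on plate 2 and 0.03 on plate 3. The sign was the same on both plates for 23 pairs, 17 of them positive, and 0 pairs were past 0.2 in the same direction on both. For Ntsr2 and Gpr37l1, the most abundant pair, it was 0.01 over the 162 cells of plate 2 and -0.12 over the 88 of plate 3. Correlations this weak in single-cell counts are not read as relations.

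Other receptors of the same families were detected in few cells, with the exception of Gpr37. Of 21 subtype relatives 14 had reads and 1 was in at least 50% of the cells, where 5.92% of the genes with reads were. So low a count is common among genes, and the same share stands beside the counts of the lists below. The relative past 50% was Gpr37, the closest kin of Gpr37l1 and known from oligodendrocytes. It was in 142 cells with 319 ± 432 CPM and a mean of 208 TPM, beside 12905 TPM of Gpr37l1. Ednra, the other endothelin receptor and known from smooth muscle and pericytes, was in 25 cells (10.0%) at 25.1 ± 99.2 CPM. Adra1b was in 18 cells (7.20%, 4.32 to 11.1%) at 13.2 CPM and 15.4 TPM, so it was in about as many cells as Adra1a. The mean of Adra1a was 14.5 CPM and 6.48 TPM, the latter with an exon union of 8728 bp. Ntsr1, Adora3, S1pr4, S1pr5, P2ry4, Adrb3 and Adra1d had no read in any cell. By a floor of 3 counts, each 0 of 250 allows up to 1.20% of cells with a detectable level, which is no limit on cells that transcribe the gene.

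**Figure D4:**
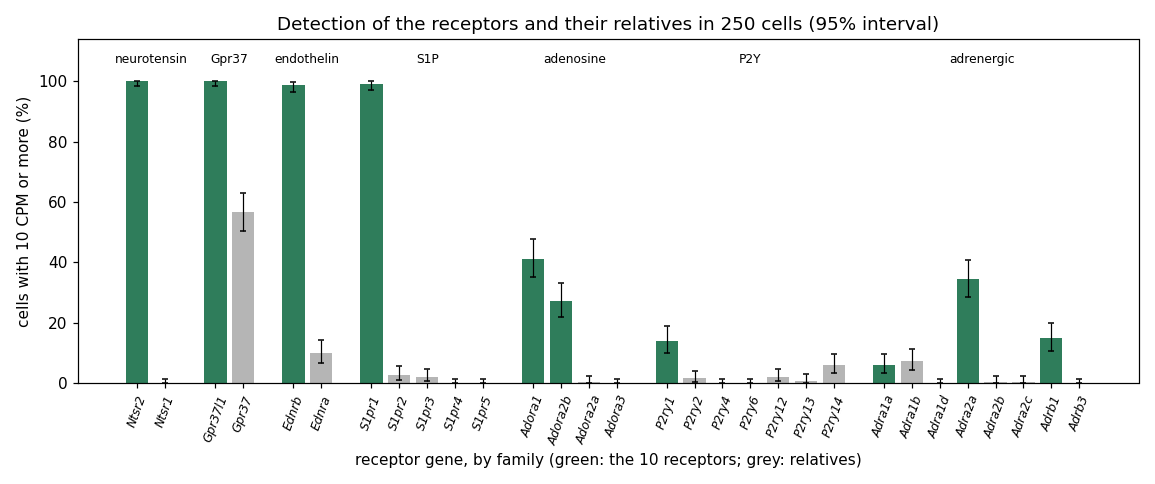
Share of the 250 cells with 10 CPM or more (vertical axis, percent, bars with exact 95% binomial intervals) for the 10 receptors in green and 20 of the 21 subtype relatives in grey, by family (S1P, sphingosine-1-phosphate; P2Y, nucleotide). Grey bars stay at or below 10.0% except Gpr37 at 56.8%, and in the adrenergic family Adra1b (7.20%) stands next to Adra1a (6.0%).

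Among the remaining relatives, P2ry14, a receptor of UDP-glucose, was in 15 cells. The microglial receptors P2ry12 and P2ry13 were in 5 and 2. The sphingosine-1-phosphate receptors S1pr2 and S1pr3 were in 7 and 5 cells, beside 248 for S1pr1. Adora2a, Adra2b and Adra2c were in 1 cell each, and P2ry6 had reads but reached 10 CPM in no cell. As a floor of the method, 10 receptors of other tissues were read in the same way. None was in 10% of the cells, 5 had no read, and those in the most cells were Lhcgr, a gonadal hormone receptor, in 8 cells at 3.53 CPM and the chemokine receptor Cxcr5 in 7 at 0.714 CPM. Per length, the mean of Adra1a (6.48 TPM) was above that of each of these 10, which reached at most 2.07 TPM, and its 15 cells were more than any of theirs.

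Of 29 further receptors of transmitters and peptides with a row, 6 were in at least 50% of the cells. The 3 of highest mean CPM, a scale that favours long transcripts, were Gpr56, an adhesion receptor, with 864 ± 594 CPM in 235 cells, Gabbr1, a subunit of the GABA-B receptor, with 518 ± 501 CPM in 212 cells, and Gprc5b, an orphan receptor, with 352 ± 316 CPM in 201 cells. The other subunit Gabbr2 was in 146 cells with 148 CPM. Grm3, the metabotropic glutamate receptor of mature astrocytes, was in 149 cells with 264 CPM, and Grm5, which is known from young astrocytes, in 13 with 15.4 CPM. Gabbr2, Grm3 and Grm5 were chosen after their values were seen. Per length, Grm3 (339 TPM) was above Gprc5b (299 TPM) and Gabbr1 (261 TPM). By number of cells, Gabbr1, Gabbr2 and Grm3 stood between the broad and the sparse members.

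The genes that make or remove the ligands were read beside the receptors. Of 26 such genes 25 had a row, and 5 were in at least 50% of the cells. Ppap2b, an enzyme of the cell surface that removes phosphate from sphingosine-1-phosphate and related lipids, was in all 250 cells with 4573 ± 1736 CPM. Psap, which encodes prosaposin, was in 248 cells with 1493 ± 941 CPM and 2130 TPM. Entpd2, which turns ATP into ADP, the ligand of P2ry1, was in 191 cells with 496 ± 484 CPM. Adk, the kinase that clears adenosine, was in 192 cells with 412 ± 440 CPM, and Ece1, which cuts endothelins to their active form, in 129 with 190 ± 269 CPM (both chosen after their values were seen). Nts, the neurotensin gene, and Edn2 had no read, and Edn1 was in 5 cells. Edn3 had reads in 7 cells and reached 10 CPM in 0. So the cells had reads of the receptors Ntsr2 and Ednrb with few or none of these peptide ligands.

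The alpha subunits of G proteins were detected in fewer cells than the broad receptors. Of 13 alpha subunit genes 4 were in at least 50% of the cells, and the 3 of highest mean CPM were Gnas (Gs) with 472 ± 486 CPM in 218 cells, Gna13 with 252 ± 386 CPM in 131 cells and Gnao1 (Go) with 161 ± 227 CPM in 151 cells. Per length the first 3 were Gnas (165 TPM), Gna13 (154 TPM) and Gnai2 (152 TPM), and Gnao1 had 57.3 TPM. That order rests on the exon unions, and levels per transcript were not computed. A Gq family subunit (Gnaq, Gna11, Gna14 or Gna15) was detected in 131 cells (52.4%, 46.0 to 58.7%). With Ntsr2 counted, all 250 cells had a Gq-coupled receptor. The 119 cells with such a receptor and no subunit therefore only restate that share. A Gi family subunit was in 218 cells and a Gs family subunit in 226, and of the 95 cells with a Gs-coupled receptor 89 had one. The grouping of subunits by class was chosen after their levels were seen. Not seeing a subunit at 10 CPM does not show that it was absent.

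Downstream, 3 of 22 effector genes were in at least 50% of the cells. The 3 of highest mean CPM were Itpr2, the main calcium release channel of astrocyte stores, with 275 ± 360 CPM in 153 cells, Plcb1, a phospholipase C that Gq activates, with 263 ± 371 CPM in 173 cells, and Adcy2, an adenylyl cyclase, with 198 ± 370 CPM in 111 cells. Per length the order was another, with 186 TPM for Adcy2, 93.3 TPM for Plcb1 and 73.5 TPM for Itpr2, and Rapgef3 (105 TPM) and Adcy8 (94.3 TPM) lay between Adcy2 and Plcb1. Of 19 receptor kinases, arrestins and RGS proteins with a row, 2 were in at least 50% of the cells. Adrbk2, a kinase that turns off active receptors, had 441 ± 540 CPM in 199 cells, Arrb1, an arrestin, 174 ± 288 CPM in 131 cells, and Rgs20, which speeds the turn-off of Gi-type subunits, 68.0 ± 143 CPM in 78 cells. Per length by exon union, no alpha subunit or effector gene was above the 186 TPM of Adcy2. The 4 broad receptors had means of 1976 to 12905 TPM on the same scale. Which transcripts were in use is not known, so the size of this gap can change with the length used.

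The genes most like each broad receptor were chosen by rank correlation over the 162 cells of plate 2, from 865 genes that were in at least 50% of the cells of each plate. They were then read on the 88 cells of plate 3, which had no part in the choice. For Gpr37l1 they were Slc38a3, a glutamine transporter (0.42 on plate 2, 0.40 on plate 3), Htra1, a secreted protease (0.42 and 0.41), and Atp1b2 (0.39 and 0.41). These 3 stood at or above the percentile 99.2 of the 865 genes on plate 3. Gpr37l1 also moved with the number of genes detected in a cell (0.25 and 0.41). Given genes detected and total reads, the values for the 3 genes on plate 3 were 0.34, 0.35 and 0.35.

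For Ntsr2 the genes were Igsf1, an immunoglobulin superfamily membrane protein (0.38 and 0.31), Sparcl1, a secreted matrix-associated protein (0.30 and 0.22), and its relative Sparc (0.29 and 0.31). Their percentiles on plate 3 were 98.0, 93.5 and 98.3. For S1pr1 they were Atp1b2 (0.28 and 0.18), the adhesion gene Cadm1 (0.25 and 0.21) and the tissue factor gene F3 (0.25 and 0.17). On plate 3 these stood at the percentiles 92.7, 95.5 and 90.1. For Ednrb they were the splicing factor gene Srsf1 (0.29 and 0.15), Ttll3, which modifies tubulin (0.28 and 0.26), and the guidance gene Rgma (0.26 and 0.05). Here the percentiles on plate 3 were 88.7, 97.3 and 61.6. The values on plate 3 were thus close to those on plate 2 for Gpr37l1, were lower for Igsf1 and Sparcl1 with Ntsr2 and for all 3 genes of S1pr1, and were near 0 for Rgma with Ednrb. Over all 865 genes the values of the 2 plates were only weakly related. Their rank correlation was 0.27 for Gpr37l1, 0.21 for Ntsr2, 0.16 for Ednrb and 0.07 for S1pr1. Cells of a plate share preparation and each pair of genes shares the total of the cell, so these are descriptions of likeness.

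**Figure D5:**
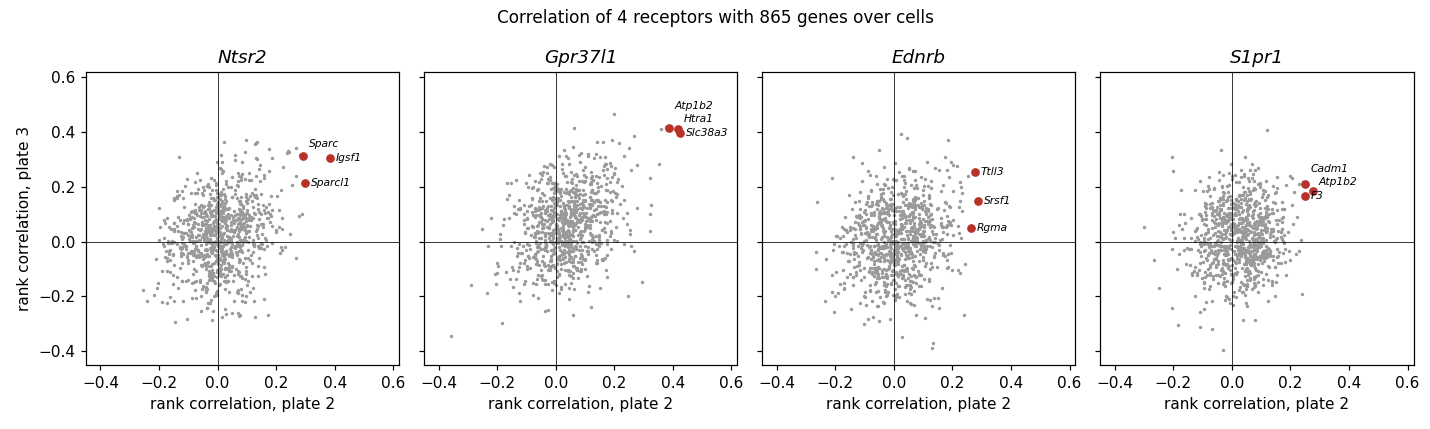
Rank correlation of Ntsr2, Gpr37l1, Ednrb and S1pr1 (panels from left to right) with each of 865 genes, over the cells of plate 2 (horizontal axis) and of plate 3 (vertical axis), with the 3 genes chosen on plate 2 in red. The red points of Gpr37l1 lie near 0.4 on both axes, and those of Ednrb spread from 0.05 to 0.26 on plate 3.

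Markers of astrocyte region were read beside the most abundant receptors, and 3 of 5 had rank correlations of opposite sign with Ntsr2 and Gpr37l1 on both plates. These were Sparc, Agt, the angiotensin precursor gene, and Itih3. Over cells of plate 2 and plate 3, Ntsr2 had rank correlations of 0.29 and 0.31 with Sparc, 0.19 and 0.31 with Agt, and 0.10 and 0.37 with Itih3. Gpr37l1 had -0.18 and -0.30 with Sparc, -0.21 and -0.12 with Agt, and -0.20 and -0.08 with Itih3. The remaining 2 did not show this on both plates, so the 5 markers together did not set the 2 receptors apart by region. Slc6a9, a glycine transporter gene, had 0.08 and 0.29 with Ntsr2 and 0.15 and 0.10 with Gpr37l1, and Mfge8, a secreted phagocytosis protein gene, had 0.02 and -0.05 with Ntsr2 and 0.04 and 0.06 with Gpr37l1. Several of these values are as weak as those between the receptors and are given as descriptions (162 and 88 cells). The region that each cell came from is not given. Gpr37l1 also had 0.38 with the summed oligodendrocyte markers on plate 3 and 0.03 on plate 2, and the part of oligodendrocyte RNA in its level was not tested.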

How the data were processed

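Single cells from mouse brain were profiled with SmartSeq2, per the labels' protocols. The authors deposited a table of whole-number read counts, not normalized, and a second table with a score per gene and cell. Tested on every entry, that score was the count scaled to 500000 per cell and rounded (100% equal). STAR 2.4.2a and the build mm10 are named in the submitters' processing notes. No source used here gives the counting tool, strand setting, annotation or cell filter. All columns were matched to samples by name (0 unmatched), and no cell was removed. No doublet caller was run, since cells were sorted into single wells.

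CPM was computed as the count over the total of the cell. TPM used the union of the exons of all transcripts of a gene in GENCODE M21 (GRCm38). That annotation matched 15566 of the 16367 genes with reads and 95.0% of the reads. Positions are from the same annotation, 1-based. Calculations used Python 3.11.15, pandas 2.3.3, numpy 2.4.6 and scipy 1.17.1, and were checked on simulated data. Shares carry exact Clopper-Pearson intervals at 95%, and a count of 0 was read as up to 3 counts. These cover counting error only, because PCR copies of a molecule are counted as separate reads. With 1 group and no known replicates, results are descriptions and carry neither tests nor standard errors.

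Independence was computed within each plate, from the product of the shares of cells on that plate. Named genes are the 10 receptors and their subtype relatives, the 3 genes most like each broad receptor, and the 3 genes of highest mean CPM of each list, of which a few are not reported here. The lists are other receptors, receptors of other tissues, genes of ligand supply and removal, G protein alpha subunits, effectors, regulators, and markers of astrocytes and 9 other cell types. The receptors and lists were chosen with earlier results of these data known. Alternatives were detection at 1 read and at 50 CPM, cells thinned to 100000 reads, a total without the 20 highest genes, each plate alone, cells without markers of another type, and independence within groups of like depth.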

Additional observations from a re-analysis of the deposited data

How the results depend on the processing

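The number of receptors detected in at least 50% of the cells was 4 under each of the 7 settings tried (1 read, 50 CPM, 100000 reads per cell, a total without the 20 highest genes, plate 2 alone, plate 3 alone, and 239 cells without 3 markers of another type). The mean number of receptors per cell ran from 5.18 at 50 CPM to 5.54 at 1 read. The variance over that under independence ran from 1.01 at 1 read to 1.17 on plate 3 alone, against 1.10. The number of pairs together more often than independence gives on both plates was 1 at 1 read, 2 after thinning to 100000 reads and 4 at 50 CPM, against 3, and the cause was not tested. Shares of cells moved beyond their intervals for Adra1a on plate 2 alone (3.09%) and for Adra1a (11.4%) and S1pr1 (100%) on plate 3 alone. The mean level of Adra1a was 7.75 CPM on plate 2 alone and 27.0 CPM on plate 3 alone, against 14.5 CPM, and no mean level of another receptor moved by over 1.5 times under a setting tried. Per length, the order of Adora1 and Adora2b turned. Over all gene rows, 3.96% of the genes were in at least 50% of the cells. No paired analysis was possible because the cells form 1 group and no test was made. Thinning to 100000 reads moved no share beyond its interval. With 3 to 22 cells behind each pair on a plate, an excess or deficit of a few cells is within the intervals.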
